A study of Mus musculus with 16 samples.

Results

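The lysosome digests what a macrophage takes up, and 44 genes of its acid machinery were followed here among 19937 genes measured. They comprise every gene whose symbol on the array begins with Atp6v, which gave 21 subunits of the vacuolar proton pump, and 23 further genes that were listed by name. The listed genes encode 10 lysosomal proteases, 6 other hydrolases, 5 proteins of the lysosomal membrane or of cholesterol export, and the transcription factors Tfeb and Tfe3. All 23 were on the array, and each gene was represented by its brightest probe set.

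The vacuolar proton pump acidifies lysosomes. Its V1 sector, on the cytosolic face, hydrolyses ATP, and the V0 sector in the membrane carries protons inward. Cathepsins and other acid hydrolases reach the lysosome through the secretory pathway and work best at the low pH that the pump maintains. TFEB and TFE3 are known to bind a short palindromic element in promoters of lysosomal genes and to increase their transcription.

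Messenger RNA was measured on 16 Affymetrix arrays, each hybridised with total RNA of mouse macrophages grown from bone marrow, all on the 129sv background. NFAT5 is a transcription factor best known from the response to hypertonic stress, and LPS comes from the wall of bacteria and is sensed by macrophages through Toll-like receptor 4. The groups were NFAT5 knockout (KO) cells with LPS, wild-type (WT) cells with LPS, unstimulated KO cells and unstimulated WT cells, with 4 arrays each. The sources used here give no dose of LPS, no time of stimulation, and neither the NFAT5 allele nor any Cre driver. No label ties the arrays of a group to separate animals or cultures, so p-values reflect only how far these samples spread, and that spread may be technical. Values are log2 expression levels after robust multi-array averaging (RMA), and every difference below is on the log2 scale. A gene was called when its adjusted p in limma, corrected for 19937 genes by Benjamini-Hochberg, was below 0.05, and "rose" and "fell" are used only of called genes.

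Within a group, arrays correlated at 0.981 to 0.996. Nfat5 itself read 9.29, 9.29, 9.12 and 8.67 in KO arrays with LPS, against 9.95, 10.56, 9.97 and 9.80 in WT arrays with LPS, a difference of -0.98 (adjusted p = 0.00169). Without LPS the difference was -0.36 (adjusted p = 0.602). The exons removed in the KO cells are not given, so the probe set is no check of the labels. All 7 macrophage markers had means above 7.11, the median of all genes, and 6 of 9 osteoclast markers had means below it. The KO arrays numbered 1 to 3 carried Y-linked Kdm5d and little Xist in both treatments, whereas KO arrays 4 and all WT arrays carried Xist and little Kdm5d. Calls between genotypes among the lysosomal genes are therefore also given with a term for these marks, and Gla, Lamp2 and Tfe3 lie on the X chromosome.

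RefSeq promoters, each from 250 bases before to 50 bases after a transcription start (build GRCm38.p6), were at hand for 35 of the 44 genes. Those of Atp6v1b2, Atp6v1c1, Atp6v1g1, Atp6v1h, Atp6v0a2, Atp6v0d2, Ctsb, Ctsh and Npc1 were not used here. The promoters at hand were searched on both strands for the E-box CACGTG and for TCACGTGA, the core of the element that TFEB and TFE3 are known to bind. Both motifs read the same on either strand, and each TCACGTGA contains the E-box. The E-box stood in a promoter of 11 of the 35 genes (31.4%), against 1483 of 15613 genes on the array with a promoter (9.50%). TCACGTGA stood in 7 of the 35 (20%), against 238 of 15613 genes (1.52%). A match describes the letters alone and is not a known site.

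The stretches below hold the core, which is in capitals, and come from the 7 genes that carry it, most of which fell with LPS. Each is written on its gene's own strand. They begin with 3 pump subunits: Atp6v0d1 at chr8:105566035-105566098 on the minus strand, Atp6v0e at chr17:26676368-26676425 on the plus strand, and Atp6v1a at chr16:44139354-44139421 on the minus strand. The core began 4 bases before the start in Atp6v0d1, 2 bases after it in Atp6v0e and 132 bases before it in Atp6v1a.
Atp6v0d1: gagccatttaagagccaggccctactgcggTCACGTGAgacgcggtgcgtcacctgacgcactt
Atp6v0e: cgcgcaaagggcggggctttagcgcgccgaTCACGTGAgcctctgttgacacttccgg
Atp6v1a: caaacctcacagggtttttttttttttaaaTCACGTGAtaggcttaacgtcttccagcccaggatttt

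Of the hydrolases, the second RefSeq promoter of Ctsa (chr2:164833730-164833802, plus strand) held 2 cores, 13 bases before and 4 bases after its start. Ctsd (chr7:142387889-142387956, minus strand) held 1 core 99 bases before the start. Gla (chrX:134601163-134601255, minus strand) held 2 cores, 228 and 195 bases before it.
Ctsa: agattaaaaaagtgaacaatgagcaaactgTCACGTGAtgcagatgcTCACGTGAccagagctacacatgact
Ctsd: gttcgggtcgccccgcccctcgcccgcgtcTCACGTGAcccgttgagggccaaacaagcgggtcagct
Gla: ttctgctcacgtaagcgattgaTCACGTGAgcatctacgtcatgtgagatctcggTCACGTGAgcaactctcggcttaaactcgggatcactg

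The lysosomal channel gene Mcoln1 (chr8:3500443-3500510, plus strand) held 1 core 46 bases before its start. For comparison, Lamp1 (chr8:13159070-13159181, plus strand) held no TCACGTGA but 4 copies of the shorter CACGTG between 61 and 15 bases before its start, in capitals here.
Mcoln1: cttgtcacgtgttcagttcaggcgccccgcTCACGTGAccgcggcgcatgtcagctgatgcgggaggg
Lamp1: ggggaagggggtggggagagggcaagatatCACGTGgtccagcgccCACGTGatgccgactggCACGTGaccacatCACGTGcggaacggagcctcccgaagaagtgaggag

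By LPS response in WT cells, 6 of 16 genes that fell and had a promoter held TCACGTGA, as did 0 of 3 that rose and 1 of 16 that were not called. For CACGTG the counts were 8 of 16, 0 of 3 and 3 of 16. Of the 7 genes with TCACGTGA, Atp6v0d1 was the one not called with LPS in WT cells. These shares are descriptions, with no test.

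More of the 44 genes fell than rose with LPS, in both genotypes. In KO cells 16 fell and 6 rose, where 12.7% of all genes fell and 12.0% rose. In WT cells 19 fell and 4 rose, where 16.8% of all genes fell and 14.0% rose. The median change was -0.14 in KO cells and -0.24 in WT cells, against 0.01 and 0.06 over all genes. The LPS and unstimulated groups did not overlap in 24 of the 44 genes in KO cells, where 24.8% of all genes did not, and in 25 in WT cells, where 32.3% did not. In such bulk samples, fewer cells of a type and less RNA per cell cannot be told apart.

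The KO and WT responses come from separate arrays. Of the 16 genes that fell in KO cells, 14 also fell in WT cells (87.5% of the KO and 73.7% of the WT calls). All 4 that rose in WT cells rose in KO cells (66.7% of the KO calls), and 0 were called in opposite directions. Over all genes, the shared falls made up 89.0% of the KO and 67.2% of the WT calls, and the shared rises 79.0% of the KO and 67.9% of the WT calls. The shares of the 44 genes for falls are near these, and those for rises rest on 6 and 4 genes.

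**Figure D1:**
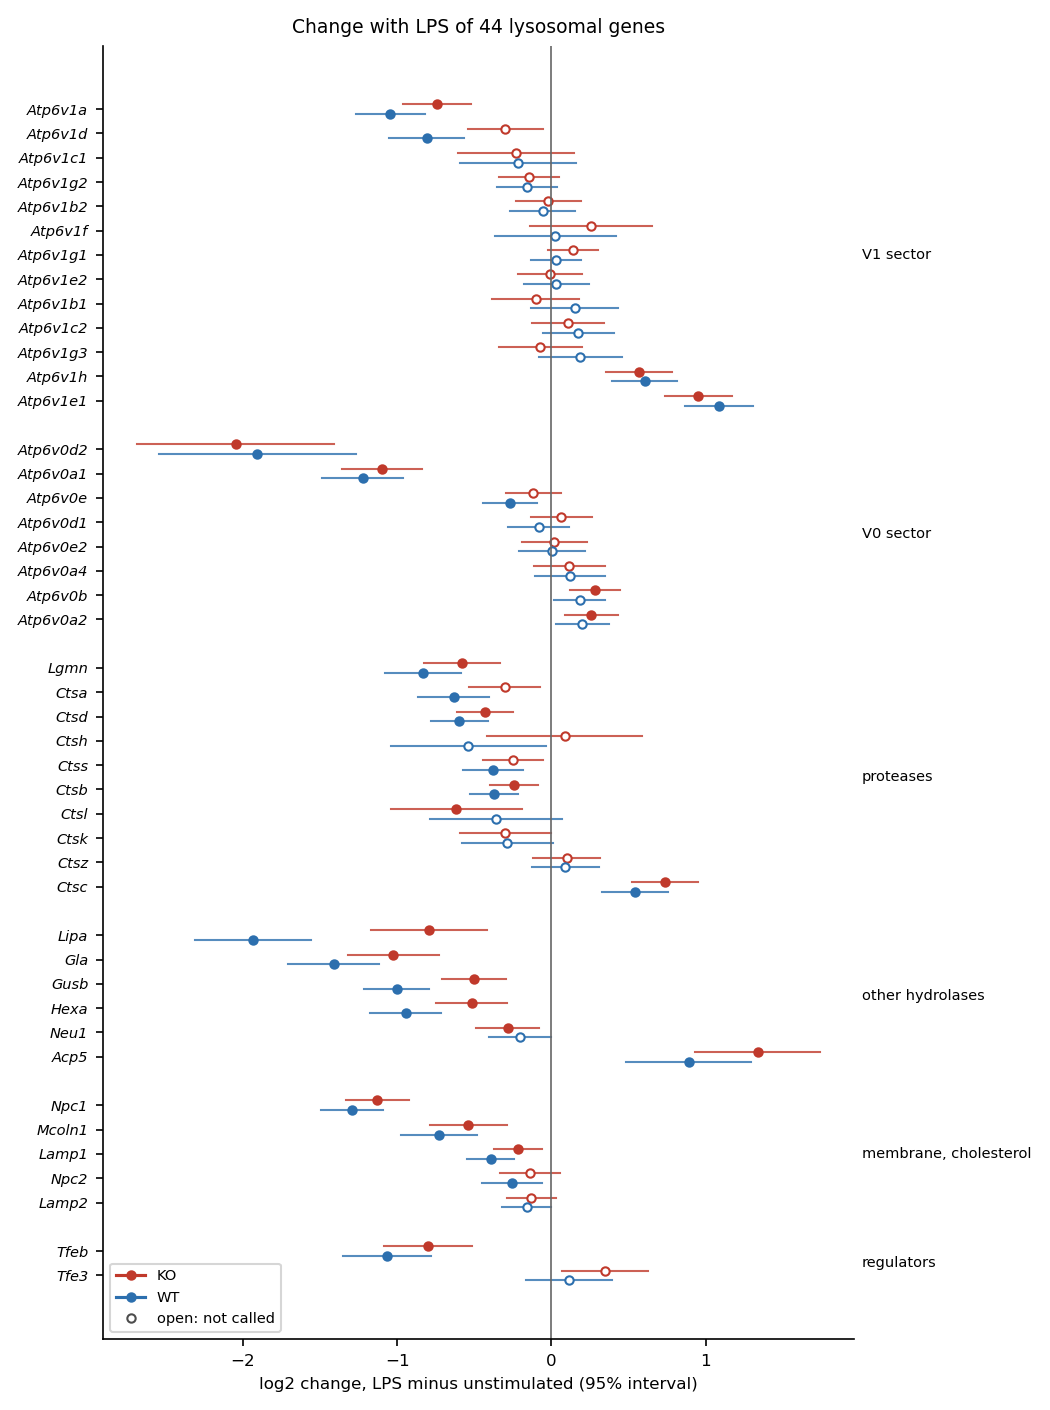
The log2 change with LPS of each of the 44 genes (x axis) is drawn by gene and role (y axis), with KO in red above WT in blue. Lines are 95% intervals from the limma fit of 4 arrays a group, and open circles were not called. Lipa, Atp6v0d2, Gla and Npc1 lie farthest to the left in WT cells, and Atp6v1e1, Acp5, Atp6v1h and Ctsc are the 4 genes called to the right of 0 in both genotypes.

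Subunits of the proton pump moved in both directions. Of 13 V1 subunits, 1 fell and 2 rose in KO cells, and 2 fell and 2 rose in WT cells. Over all genes, 24.7% were called in KO cells and 30.8% in WT cells, in either direction. The V1 counts lay near these shares. Atp6v1a, the catalytic A subunit that hydrolyses ATP, fell in both genotypes. With LPS, Atp6v1a read 11.10, 10.85, 10.80 and 10.83 in KO arrays and 10.48, 10.24, 10.54 and 10.65 in WT arrays. Without LPS, Atp6v1a read 11.79, 11.60, 11.60 and 11.56 in KO arrays and 11.36, 11.50, 11.49 and 11.72 in WT arrays. All LPS arrays lay below all unstimulated arrays, and with LPS the KO arrays lay above the WT arrays. For Atp6v1a the LPS change was -0.74 ± 0.11 (SE) in KO cells (adjusted p = 2.25e-05) and -1.04 ± 0.11 in WT cells (adjusted p = 2.76e-07).

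Atp6v1d, which encodes the D subunit of the rotating central stalk, was likewise higher in KO than in WT cells with LPS. Levels of Atp6v1d with LPS were 10.14, 10.04, 9.89 and 10.17 in KO arrays, against 9.86, 9.39, 9.56 and 9.66 in WT arrays. Unstimulated, Atp6v1d had levels of 10.35, 10.21, 10.36 and 10.53 in KO arrays, against 10.49, 10.19, 10.38 and 10.64 in WT arrays. The WT arrays with LPS were the lowest and overlapped with no other group, whereas the KO and WT arrays without LPS overlapped. For Atp6v1d the LPS change was -0.30 ± 0.12 (SE) in KO cells (adjusted p = 0.0699) and -0.81 ± 0.12 in WT cells (adjusted p = 1.86e-05). It was called in WT cells and missed the threshold in KO cells, and the difference between the 2 responses (0.51 ± 0.16, adjusted p = 0.177) also missed it. With replicate number as a block, that difference was called (adjusted p = 0.0431).

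Atp6v1e1 and Atp6v1h rose. The E subunit made from Atp6v1e1 is part of the outer stalks that hold the V1 head in place. With LPS, Atp6v1e1 read 11.15, 10.85, 10.73 and 10.68 in KO arrays and 11.22, 11.02, 11.07 and 11.05 in WT arrays. Without LPS, Atp6v1e1 read 9.90, 9.96, 9.95 and 9.79 in KO arrays and 9.95, 9.98, 9.88 and 10.21 in WT arrays. The LPS arrays of both genotypes were higher than every unstimulated array. For Atp6v1e1 the LPS change was 0.95 ± 0.10 (SE) in KO cells (adjusted p = 1.05e-06) and 1.09 ± 0.10 in WT cells (adjusted p = 1.42e-07). The H subunit gene Atp6v1h, whose product regulates ATP hydrolysis, rose by 0.57 ± 0.10 in KO cells and 0.60 ± 0.10 in WT cells (adjusted p = 2.61e-04 and 1.06e-04).

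The other 9 V1 genes were called in neither genotype. Among them, the widely expressed B subunit gene Atp6v1b2 had LPS differences of -0.02 in KO cells and -0.06 in WT cells, and the C subunit gene Atp6v1c1 of -0.23 and -0.22. Their 95% intervals were -0.23 to 0.19 and -0.27 to 0.15 for Atp6v1b2 and -0.61 to 0.15 and -0.59 to 0.16 for Atp6v1c1. The remaining uncalled V1 genes were Atp6v1f, Atp6v1g1 and Atp6v1g2 and the forms known from kidney, testis or other restricted tissues, Atp6v1b1, Atp6v1c2, Atp6v1e2 and Atp6v1g3. Atp6v1f had a second, dimmer probe set with the opposite sign in KO cells (-0.19, against 0.26 for the brighter one).

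In the V0 sector, 2 of 8 genes fell and 2 rose in KO cells, and 3 fell and 0 rose in WT cells. Of all genes, 12.7% fell and 12.0% rose in KO cells, and 16.8% fell and 14.0% rose in WT cells. Atp6v0a1 encodes the large a subunit along which protons pass. Levels of Atp6v0a1 with LPS were 10.89, 10.56, 10.83 and 10.83 in KO arrays, against 10.30, 10.56, 10.88 and 10.59 in WT arrays. Unstimulated, Atp6v0a1 had levels of 11.85, 11.76, 12.01 and 11.89 in KO arrays, against 11.50, 11.89, 11.91 and 11.94 in WT arrays. Every LPS array was lower than every unstimulated array, and the genotypes overlapped in both treatments. For Atp6v0a1 the LPS change was -1.10 ± 0.12 (SE) in KO cells (adjusted p = 1.59e-06) and -1.22 ± 0.12 in WT cells (adjusted p = 2.96e-07).

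Atp6v0d2, the d subunit form known from osteoclasts and macrophages, fell most among the pump genes. With LPS, Atp6v0d2 read 8.96, 8.94, 7.98 and 8.54 in KO arrays and 8.39, 7.65, 8.97 and 8.64 in WT arrays. Without LPS, Atp6v0d2 read 10.89, 11.11, 10.04 and 10.57 in KO arrays and 10.08, 9.67, 10.82 and 10.70 in WT arrays. Arrays of a group differed by up to more than 1 log2 unit, yet the LPS and unstimulated arrays did not overlap in either genotype. For Atp6v0d2 the LPS change was -2.05 ± 0.30 (SE) in KO cells (adjusted p = 3.83e-05) and -1.91 ± 0.30 in WT cells (adjusted p = 6.45e-05). The widely expressed d form, Atp6v0d1, was not called (0.06 in KO cells and -0.08 in WT cells).

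Markers of osteoclasts, which share Atp6v0d2 and Acp5 with macrophages, were looked at beside these genes. The mean of the 9 osteoclast markers per array spanned 7.20 to 7.47 in KO and 7.26 to 7.44 in WT arrays with LPS, and 7.10 to 7.29 in KO and 7.15 to 7.33 in WT arrays without it. The mean of the 7 macrophage markers spanned 12.02 to 12.04 in KO and 11.80 to 11.96 in WT arrays with LPS, and 11.80 to 11.96 in KO and 12.13 to 12.21 in WT arrays without it. With LPS, Calcr and Mmp9 rose in both genotypes, Car2 rose in WT cells, and Nfatc1 and Tnfrsf11a fell in both. Of the macrophage markers, Cd14 rose (2.03 in KO and 1.04 in WT cells), and Mertk (-1.15 and -1.62) and Cd68 (-0.42 and -0.57) fell in both genotypes. Adgre1 (0.28) and Fcgr1 (0.51) rose in KO cells, and Csf1r (-0.49) fell in WT cells. Between genotypes, Cd14 was called lower in KO cells without LPS (-1.20, adjusted p = 5.13e-05). It was not called with LPS (-0.21, adjusted p = 0.712), and its LPS response differed (0.99, adjusted p = 0.016).

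The mean of 6 stromal markers spanned 7.15 to 7.26 in KO and 7.33 to 7.37 in WT arrays with LPS, above the 6.54 to 6.76 in KO and 6.46 to 6.73 in WT arrays without it. Pdgfrb, a growth factor receptor of stromal cells, rose by 3.16 in KO and 3.88 in WT cells. The rest of that list, Col1a1, Col1a2, Col3a1, Dcn and Lum, was not called with LPS in either genotype. The mean of 5 dendritic cell markers, each with a mean below the median of all genes, spanned 6.04 to 6.09 in KO and 6.01 to 6.26 in WT arrays with LPS, and 5.82 to 5.97 in KO and 5.71 to 5.99 in WT arrays without it. Xcr1 of that list rose by 0.58 in KO and 0.63 in WT cells, and the granulocyte marker Camp rose in WT cells (0.79). No other dendritic cell or granulocyte marker was called with LPS. The part of these markers in the results was not tested.

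The small V0 subunit gene Atp6v0e fell in WT cells (-0.27 ± 0.08, adjusted p = 0.0189) and was not called in KO cells (-0.12 ± 0.08, adjusted p = 0.404). In KO cells Atp6v0b, a subunit of the proton-carrying ring, rose by 0.28 ± 0.08 (adjusted p = 0.0106). In WT cells its difference was 0.18 ± 0.08 (adjusted p = 0.0898). Atp6v0a2, another a subunit form, rose by 0.26 ± 0.08 in KO cells (adjusted p = 0.0249) and was not called in WT cells (0.20 ± 0.08, adjusted p = 0.0728), while its second probe set differed by 0.12 in KO and 0.03 in WT cells. The KO call of Atp6v0a2 was kept in 9 of 15 settings, being lost without KO array 1 or 2 with LPS or 3 or 4 without it, and the WT call of Atp6v0e in 12, being lost without WT array 2 with LPS or 4 without it. For these 3 genes the difference in response between the genotypes was not called (adjusted p = 0.763, 0.849 and 0.937). Atp6v0a4 and Atp6v0e2 were not called.

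**Figure D2:**
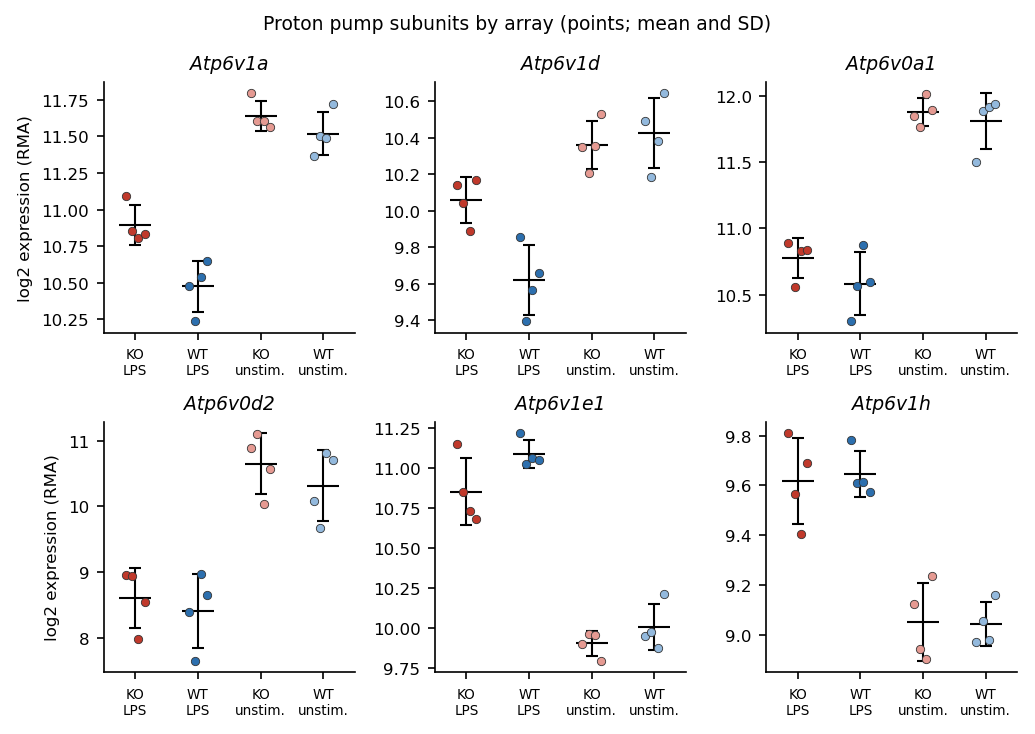
The log2 level of 6 pump subunits (y axes, each with its own range) is plotted per array for the 4 groups (x axis), with the mean and SD of 4 arrays. Atp6v1a and Atp6v1d are lowest in WT cells with LPS, Atp6v0a1 and Atp6v0d2 are low with LPS in both genotypes, and Atp6v1e1 and Atp6v1h are high with LPS in both.

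More of the 10 proteases fell than rose. With LPS 4 fell and 1 rose in KO cells, where 12.7% of all genes fell and 12.0% rose. In WT cells 5 fell and 1 rose, where 16.8% of all genes fell and 14.0% rose. Lgmn, an endopeptidase that cleaves after asparagine and activates cathepsins, fell by 0.58 in KO cells and by 0.83 in WT cells (adjusted p = 8.49e-04 and 1.51e-05). Ctsd, the aspartic protease cathepsin D, changed by -0.43 ± 0.09 in KO cells and -0.60 ± 0.09 in WT cells (adjusted p = 9.06e-04 and 2.45e-05). For Ctsb, a cysteine cathepsin, the changes were -0.24 ± 0.07 in KO cells and -0.37 ± 0.07 in WT cells (adjusted p = 0.0205 and 6.02e-04). All 3 fell in both genotypes, and the KO call of Ctsb was kept in 12 of 15 settings, being lost without unstimulated KO array 3.

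Ctsa encodes protective protein, a carboxypeptidase that also stabilises neuraminidase. It fell in WT cells (-0.63 ± 0.11, adjusted p = 1.54e-04) and missed the threshold in KO cells (-0.30 ± 0.11, adjusted p = 0.0508). Ctss, the cysteine cathepsin that trims the invariant chain for antigen presentation, showed the same pair of calls. Levels of Ctss with LPS were 13.00, 12.95, 12.83 and 12.69 in KO arrays, against 12.64, 12.41, 12.58 and 12.39 in WT arrays. Unstimulated, Ctss had levels of 13.19, 13.21, 13.07 and 12.99 in KO arrays, against 12.94, 12.88, 12.96 and 12.78 in WT arrays. With either treatment the KO arrays lay above the WT arrays, and with LPS the WT arrays were the lowest of all. For Ctss the LPS change was -0.25 ± 0.09 (SE) in KO cells (adjusted p = 0.0598) and -0.38 ± 0.09 in WT cells (adjusted p = 0.00326).

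The opposite pair of calls was seen for Ctsl, another cysteine cathepsin, which fell in KO cells (-0.62 ± 0.20, adjusted p = 0.0312) and was not called in WT cells (-0.36 ± 0.20, adjusted p = 0.208). The KO call of Ctsl was kept in 9 of 15 settings, being lost without KO array 2 or 3 with LPS or 1 or 4 without it. The differences in response were 0.33 for Ctsa, 0.13 for Ctss and -0.26 for Ctsl, none of them called (adjusted p = 0.483, 0.83 and 0.852). Ctsc, a dipeptidyl peptidase that activates serine proteases of granules, was the protease that rose, by 0.74 ± 0.10 in KO cells and 0.54 ± 0.10 in WT cells (adjusted p = 1.64e-05 and 3.34e-04). Ctsz, Ctsh and Ctsk were called in neither genotype. Ctsh varied widely within groups, and its LPS difference was 0.08 ± 0.24 in KO cells and -0.54 ± 0.24 in WT cells.

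The largest fall in WT cells was that of Lipa, the acid lipase that frees cholesterol and fatty acids from lipoprotein esters. With LPS, Lipa read 12.37, 12.18, 12.21 and 12.29 in KO arrays and 10.91, 10.32, 11.41 and 11.52 in WT arrays. Without LPS, Lipa read 13.24, 13.09, 12.98 and 12.92 in KO arrays and 12.93, 13.00, 12.98 and 12.98 in WT arrays. The unstimulated arrays of both genotypes overlapped, the KO arrays with LPS were lower than these, and the WT arrays with LPS were lower still and the most spread. For Lipa the LPS change was -0.79 ± 0.18 (SE) in KO cells (adjusted p = 0.00231) and -1.93 ± 0.18 in WT cells (adjusted p = 8.94e-08). In fold terms Lipa was 1.73-fold lower with LPS in KO cells and 3.82-fold lower in WT cells. Lipa was the 1 gene of the 44 whose LPS response differed between genotypes (1.14 ± 0.25, adjusted p = 0.0338), where 0.988% of all genes were called in that direction. Another 4 genes had a positive difference at an unadjusted p below 0.05 and 0 had a negative one. No share of all genes is given for that cutoff.

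That call was lost when any of 11 of the 16 arrays was left out (adjusted p 0.0523 to 0.0730), namely KO arrays 1 to 4 or WT array 1 with LPS, and KO arrays 3 and 4 or WT arrays 1 to 4 without it. The difference lay between 0.90 and 1.30 in all 22 settings planned. With replicate number as a block the adjusted p was 0.0237. With the term for Xist and Kdm5d it was 0.0316. Neither setting can change the difference in response itself. Each replicate number occurs once in every group, and the marks fall on the same numbers in both treatments. These adjusted p therefore reflect only a changed estimate of the spread, and the term is no check on the marks here.

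Gla, Hexa and Gusb encode glycosidases that cleave sugars from glycolipids, gangliosides and glycosaminoglycans, and all 3 fell. Levels of Gla with LPS were 10.07, 9.93, 9.79 and 9.96 in KO arrays, against 9.88, 9.05, 9.50 and 9.61 in WT arrays. Unstimulated, Gla had levels of 11.03, 11.02, 10.79 and 11.02 in KO arrays, against 10.95, 10.66, 10.94 and 11.13 in WT arrays. Every LPS array was lower than every unstimulated array, with WT array 2 with LPS the lowest. For Gla the LPS change was -1.03 ± 0.14 (SE) in KO cells (adjusted p = 1.53e-05) and -1.41 ± 0.14 in WT cells (adjusted p = 2.32e-07).

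Gusb, beta-glucuronidase, had a tighter spread. With LPS, Gusb read 10.61, 10.67, 10.45 and 10.65 in KO arrays and 9.91, 9.78, 10.07 and 10.17 in WT arrays. Without LPS, Gusb read 11.05, 11.20, 10.98 and 11.15 in KO arrays and 10.81, 10.99, 10.99 and 11.14 in WT arrays. The order of the groups was unstimulated, then KO with LPS, then WT with LPS, with no overlap between these 3 levels. For Gusb the LPS change was -0.50 ± 0.10 (SE) in KO cells (adjusted p = 7.71e-04) and -1.0 ± 0.10 in WT cells (adjusted p = 2.34e-07).

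Hexa, the alpha subunit of beta-hexosaminidase, had the same order. Levels of Hexa with LPS were 12.41, 12.46, 12.19 and 12.14 in KO arrays, against 11.75, 11.49, 12.01 and 11.96 in WT arrays. Unstimulated, Hexa had levels of 12.86, 12.92, 12.73 and 12.76 in KO arrays, against 12.66, 12.80, 12.76 and 12.76 in WT arrays. Unstimulated KO and WT arrays overlapped, and each LPS group stood apart from them and from the other LPS group. For Hexa the LPS change was -0.52 ± 0.11 (SE) in KO cells (adjusted p = 0.00132) and -0.94 ± 0.11 in WT cells (adjusted p = 1.56e-06). Neu1, a sialidase, fell in KO cells (-0.28 ± 0.10, adjusted p = 0.0361) and was not called in WT cells (-0.20 ± 0.10, adjusted p = 0.124). The KO call of Neu1 was kept in 7 of 15 settings and was lost without any 1 of 5 arrays, KO arrays 1, 3 and 4 with LPS and 2 and 3 without it (adjusted p 0.0633 to 0.124).

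Acp5, an acid phosphatase of macrophages and osteoclasts, rose. With LPS, Acp5 read 9.67, 9.60, 9.09 and 9.29 in KO arrays and 10.02, 10.12, 9.52 and 9.35 in WT arrays. Without LPS, Acp5 read 8.22, 8.42, 7.78 and 7.88 in KO arrays and 9.18, 9.03, 8.64 and 8.60 in WT arrays. Every LPS array lay above the unstimulated arrays of its own genotype. For Acp5 the LPS change was 1.34 ± 0.19 (SE) in KO cells (adjusted p = 2.71e-05) and 0.89 ± 0.19 in WT cells (adjusted p = 0.00127). Without LPS, all KO arrays were lower than all WT arrays, with a difference of -0.79 ± 0.19 (SE), and the adjusted p of 0.0601 missed the threshold. With replicate number as a block, Acp5 was called lower in unstimulated KO cells (adjusted p = 8.09e-05). It was also called lower with LPS (-0.34, adjusted p = 0.0338), against an adjusted p of 0.603 without the block.

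**Figure D3:**
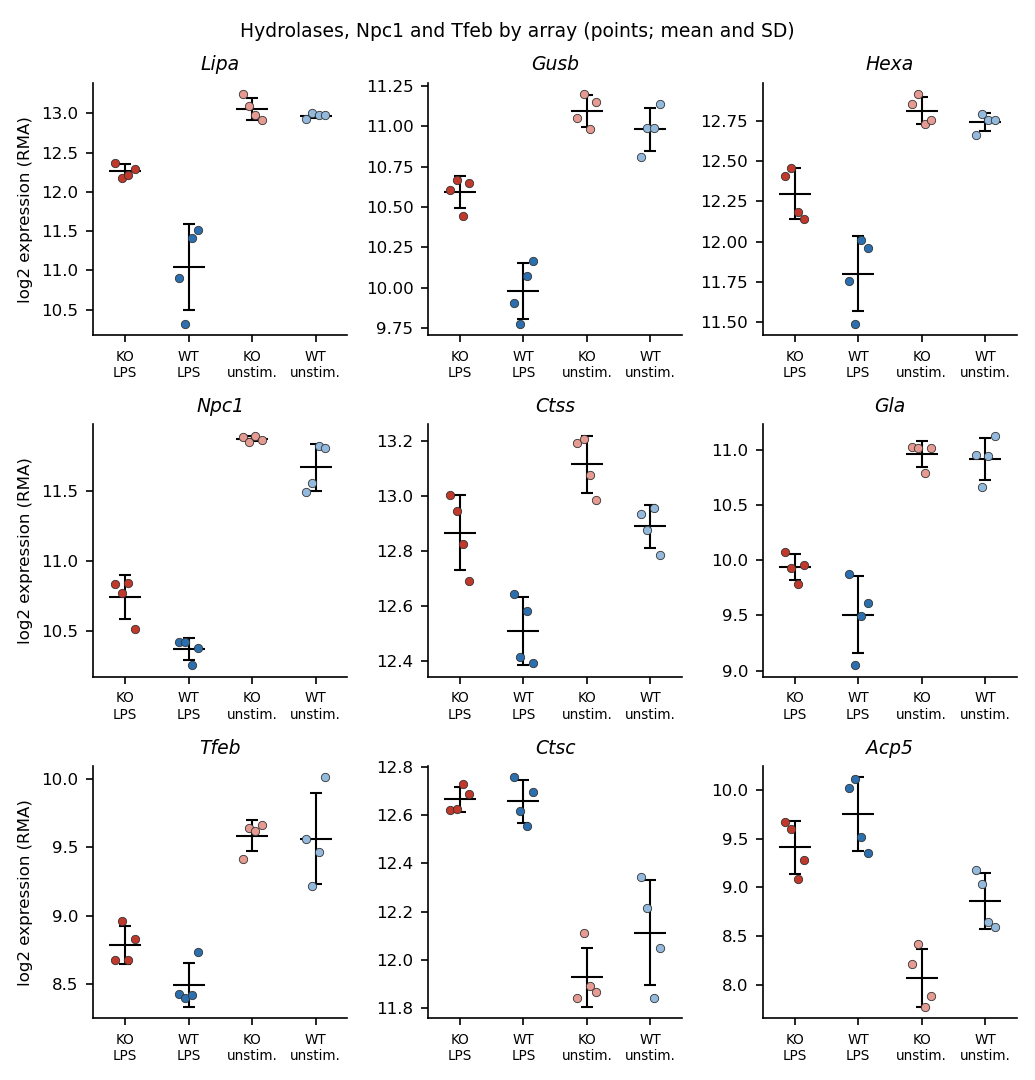
The log2 level of 9 genes (y axes, each with its own range) is plotted per array for the 4 groups (x axis), with the mean and SD of 4 arrays. For Lipa, Gusb, Hexa, Npc1 and Ctss the KO arrays with LPS lie above all WT arrays with LPS, whereas Ctsc and Acp5 are higher with LPS within each genotype.

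Npc1 and Npc2 pass cholesterol out of the lysosome, Npc2 binding it in the lumen and Npc1 moving it through the membrane. Levels of Npc1 with LPS were 10.84, 10.77, 10.85 and 10.52 in KO arrays, against 10.42, 10.43, 10.26 and 10.38 in WT arrays. Unstimulated, Npc1 had levels of 11.88, 11.85, 11.89 and 11.86 in KO arrays, against 11.49, 11.56, 11.82 and 11.80 in WT arrays. The LPS arrays were all lower than the unstimulated ones, and in both treatments the KO arrays lay above the WT arrays. For Npc1 the LPS change was -1.13 ± 0.10 (SE) in KO cells (adjusted p = 4.12e-08) and -1.29 ± 0.10 in WT cells (adjusted p = 5.27e-09). Npc2 fell in WT cells (-0.26 ± 0.09, adjusted p = 0.0418) and was not called in KO cells (-0.14 ± 0.09, adjusted p = 0.352). The WT call of Npc2 was kept in 6 of 15 settings and was lost without any 1 of 6 arrays, WT arrays 2, 3 and 4 with LPS and 1, 3 and 4 without it (adjusted p 0.0691 to 0.145).

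Lamp1, an abundant glycoprotein of the lysosomal membrane, fell in both genotypes. With LPS, Lamp1 read 12.68, 12.67, 12.62 and 12.71 in KO arrays and 12.64, 12.43, 12.57 and 12.47 in WT arrays. Without LPS, Lamp1 read 12.91, 12.92, 12.82 and 12.90 in KO arrays and 12.96, 12.88, 12.95 and 12.91 in WT arrays. No LPS array reached an unstimulated one. For Lamp1 the LPS change was -0.22 ± 0.07 (SE) in KO cells (adjusted p = 0.0348) and -0.39 ± 0.07 in WT cells (adjusted p = 2.98e-04). The KO call of Lamp1 was kept in 6 of 15 settings and was lost without any 1 of 6 arrays, KO arrays 1, 2 and 3 with LPS and 1, 2 and 4 without it (adjusted p 0.0614 to 0.0941), whereas the WT call was kept in all 15. Its relative Lamp2 was not called (-0.13 ± 0.08 in KO cells and -0.16 ± 0.08 in WT cells).

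Mcoln1 encodes the cation channel that releases calcium from lysosomes. Levels of Mcoln1 with LPS were 10.24, 10.42, 10.44 and 10.36 in KO arrays, against 10.00, 9.79, 10.24 and 10.27 in WT arrays. Unstimulated, Mcoln1 had levels of 10.79, 10.87, 10.95 and 10.99 in KO arrays, against 10.60, 10.65, 10.93 and 11.04 in WT arrays. The LPS and unstimulated arrays did not overlap, and the genotypes overlapped in both treatments. For Mcoln1 the LPS change was -0.54 ± 0.12 (SE) in KO cells (adjusted p = 0.00177) and -0.73 ± 0.12 in WT cells (adjusted p = 6.97e-05).

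The transcription factor gene Tfeb fell in both genotypes. With LPS, Tfeb read 8.68, 8.96, 8.68 and 8.83 in KO arrays and 8.43, 8.40, 8.42 and 8.73 in WT arrays. Without LPS, Tfeb read 9.41, 9.64, 9.62 and 9.66 in KO arrays and 9.56, 9.22, 9.47 and 10.01 in WT arrays. All LPS arrays were lower than all unstimulated arrays. For Tfeb the LPS change was -0.80 ± 0.14 (SE) in KO cells (adjusted p = 1.60e-04) and -1.07 ± 0.14 in WT cells (adjusted p = 4.72e-06).

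Tfe3, its relative, was not called in either genotype. Levels of Tfe3 with LPS were 10.85, 11.01, 10.94 and 11.24 in KO arrays, against 11.04, 10.86, 10.94 and 11.25 in WT arrays. Unstimulated, Tfe3 had levels of 10.35, 10.66, 10.68 and 10.96 in KO arrays, against 10.76, 10.80, 10.90 and 11.18 in WT arrays. LPS and unstimulated arrays overlapped in both genotypes, and the array numbered 4 was the highest in every group. For Tfe3 the LPS change was 0.35 ± 0.13 (SE) in KO cells (adjusted p = 0.0683) and 0.12 ± 0.13 in WT cells (adjusted p = 0.566). The mRNA level does not show how much of either protein is in the nucleus, which is how both are known to be regulated.

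Without LPS, 0 of the 44 genes were called between KO and WT cells by limma, where 0.863% of all genes were called lower and 0.140% higher in KO cells. At an unadjusted p below 0.05, a cutoff with no all-gene share here, 2 were higher (Ctss and Npc1) and 1 was lower (Acp5). These were also the 3 genes whose groups did not overlap, where 4.33% of all genes did not. The median difference was 0.03, against 0.00 over all genes.

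With LPS, 7 of the 44 genes were called higher and 0 lower in KO than in WT cells, where 1.80% of all genes were called higher and 1.26% lower (3.05% in either direction). At an unadjusted p below 0.05 the counts were 15 higher and 1 lower. For this cutoff no share of all genes is given. The median difference was 0.13, against -0.01 over all genes. The difference was positive for 32 genes (72.7%, against 46.6% of all genes). KO and WT groups did not overlap in 10 of the 44 genes, where 7.73% of all genes did not. The comparison shares its arrays with the 2 LPS responses, so the values stand side by side and are not independent of them.

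**Figure D4:**
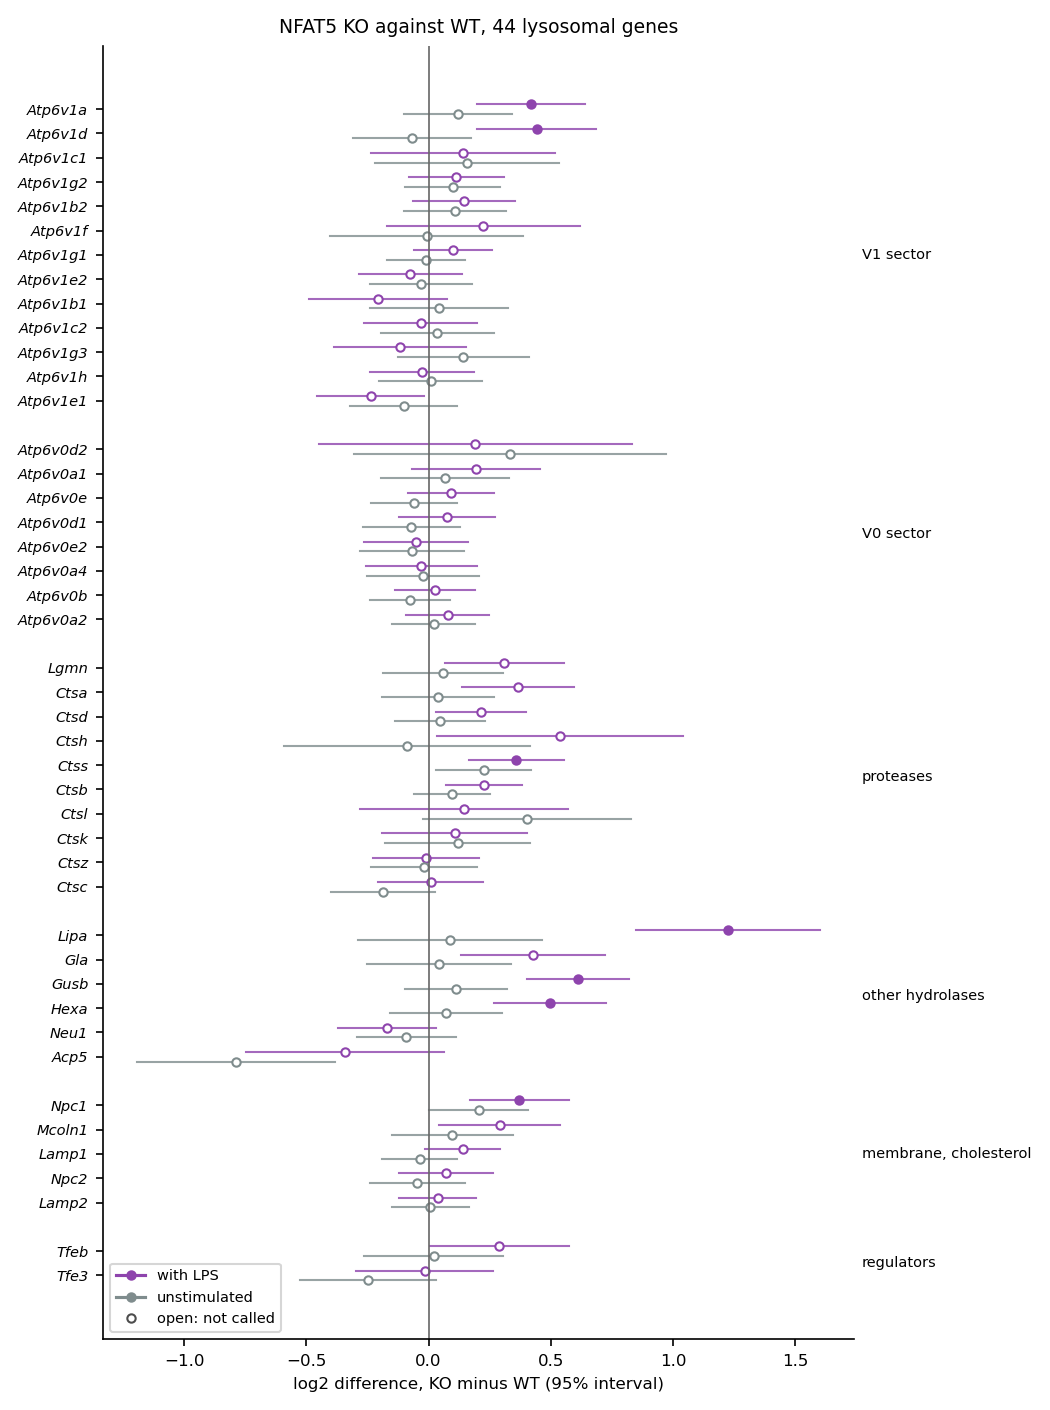
The log2 difference of KO minus WT cells (x axis) is drawn for each of the 44 genes by role (y axis), with LPS in purple above unstimulated in grey. Lines are 95% intervals, and open circles were not called. The 7 filled points, all with LPS and right of 0, are Lipa, Gusb, Hexa, Atp6v1d, Atp6v1a, Npc1 and Ctss.

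Of the 7 genes, Lipa and Gusb had the largest differences. For Lipa it was 1.23 ± 0.18 (SE), or 2.34-fold (adjusted p = 6.76e-04). For Gusb it was 0.61 ± 0.10, or 1.53-fold (adjusted p = 0.00157). These were the genes called in every one of the 15 settings planned for this comparison.

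The other 5 were called in only some settings. For Hexa the difference was 0.50 ± 0.11, or 1.41-fold (adjusted p = 0.0157), with the call kept in 10 of the 15. For the pump subunits it was 0.44 ± 0.12 (1.36-fold, adjusted p = 0.0433) for Atp6v1d and 0.42 ± 0.11 (1.34-fold, adjusted p = 0.0347) for Atp6v1a, kept in 6 and 5 settings. For Npc1 it was 0.37 ± 0.10 (1.29-fold, adjusted p = 0.0411), kept in 5, and for Ctss 0.36 ± 0.09 (1.28-fold, adjusted p = 0.0401), kept in 7. In all 7 the KO arrays with LPS lay above every WT array with LPS.

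Ctsb, Ctsd and Ctsa also had groups that did not overlap, with differences of 0.23, 0.21 and 0.37 that were not called (adjusted p = 0.133, 0.303 and 0.0896). With replicate number as a block, 10 genes were called higher. Ctsa (adjusted p = 0.0371), Ctsh (0.02) and Gla (0.0476) joined the 7. In that setting 1 gene, Acp5, was called lower (-0.34, adjusted p = 0.0338). The shares of all genes given above belong to the fit without the block, and none is given for the block. Tfeb differed by 0.29 ± 0.14 (adjusted p = 0.422), Mcoln1 by 0.29 ± 0.12 (adjusted p = 0.294) and Tfe3 by -0.02 ± 0.13 (adjusted p = 0.998).

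Arrays with Y-linked transcripts were found in the KO groups alone. With a term for Xist and Kdm5d, Lipa, Gusb and Atp6v1d were still called higher in KO cells with LPS (1.17, 0.67 and 0.58; adjusted p = 0.013, 0.0106 and 0.0366), and Atp6v1f was called too (0.71, adjusted p = 0.0366). Without the term, Atp6v1f differed by 0.22 (adjusted p = 0.865). Its array numbered 4 was the highest in every group, at 11.68 in KO and 11.39 in WT arrays with LPS, and 11.53 and 11.27 without it. Among KO arrays the marks set number 4 apart from numbers 1 to 3, so the marks and that number cannot be told apart. With the term, Hexa, Atp6v1a, Npc1 and Ctss were not called (adjusted p = 0.134, 0.172, 0.255 and 0.311). Over the arrays with Xist above Kdm5d, which leave 1 KO array with LPS against 4 WT arrays, 0 genes were called. The differences there were 1.25 for Lipa, 0.67 for Gusb, 0.55 for Atp6v1d, 0.36 for Atp6v1a, 0.34 for Hexa, 0.18 for Ctss and 0.14 for Npc1.

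Leaving out 1 array of the LPS groups left between 2 and 6 genes called higher. The count was 2 without KO array 1, KO array 2 or WT array 2, and 4 without KO array 3, WT array 3 or WT array 4. Of the 7 macrophage markers, Mertk was called in the same comparison (0.79, adjusted p = 0.00891), while Calcr of the osteoclast and Pdgfrb of the stromal markers were lower in KO cells. The part of these in the differences was not tested.

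Other genes of the lysosome, taken from 5 lists, were set beside the 44. With LPS, 12.7% of all genes fell and 12.0% rose in KO cells, and 16.8% fell and 14.0% rose in WT cells. Between genotypes with LPS, 1.80% of all genes were called higher and 1.26% lower in KO cells. These shares stand beside the counts of each list below. Of 31 further hydrolases and activators measured (36 listed), 20 fell and 2 rose with LPS in KO cells, and 25 fell and 2 rose in WT cells. Their median change was -0.56 in KO cells and -0.96 in WT cells. The phospholipase gene Pla2g15 changed by -2.11 in KO cells and -2.85 in WT cells, and the mannosidase gene Manba by -1.84 and -2.51. For Sgsh, a sulfatase of heparan sulfate, the changes were -2.70 and -2.45, and for Galc, which degrades galactosylceramide, -1.20 and -2.12.

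With LPS, 4 of these 31 genes were called higher in KO than in WT cells and 0 lower, where 1.80% and 1.26% of all genes were. Galc differed by 1.10 ± 0.12 (adjusted p = 3.89e-05), Manba by 0.69 ± 0.13 (0.00389), Pla2g15 by 0.68 ± 0.11 (9.42e-04) and Tpp1, a peptidase that removes tripeptides, by 0.56 ± 0.13 (0.0258). Of the 31, the LPS response itself differed for Galc (0.92, adjusted p = 0.0131) and Pla2g15 (0.75, adjusted p = 0.018).

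Of 17 further lysosomal membrane proteins (18 listed), 9 fell and 2 rose in KO cells, and 14 fell and 2 rose in WT cells. The sialic acid exporter gene Slc17a5 changed by -1.46 in KO cells and -2.09 in WT cells, and the cystine exporter gene Ctns by -1.10 and -1.68. The LPS response of Slc17a5 differed between genotypes (0.63, adjusted p = 0.0353). The chloride-proton exchanger gene Clcn7 rose by 1.54 and 1.20, and Slc15a3, a transporter of histidine and peptides, by 1.29 and 1.41. With LPS, Slc17a5 (0.67), Scarb2 (0.63), the receptor that carries glucocerebrosidase to lysosomes, and Ctns (0.55) were called higher in KO than in WT cells (adjusted p = 7.69e-04, 0.0135 and 0.0242).

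Of 11 genes of mannose-6-phosphate tagging and sorting (12 listed), 3 fell and 3 rose in KO cells, and 5 fell and 3 rose in WT cells. Falls made up 12.7% of all genes and rises 12.0% in KO cells, against 16.8% and 14.0% in WT cells. Ap1b1, a subunit of the AP-1 clathrin adaptor, changed by -1.90 in KO cells and -2.25 in WT cells. The sorting adaptor gene Gga2, the sorting receptor gene Sort1 and the mannose-6-phosphate receptor gene Igf2r were called higher in KO than in WT cells with LPS, by 0.76, 0.71 and 0.49 (adjusted p = 0.00101, 0.0473 and 0.0384). The LPS response of Gga2 also differed between genotypes (0.75, adjusted p = 0.0339).

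Of 20 genes of nutrient sensing and TFEB control, 8 fell and 3 rose in KO cells, and 11 fell and 3 rose in WT cells. Tfec, a relative of Tfeb, rose by 2.55 in KO cells and 2.75 in WT cells. Flcn, a protein that helps mTORC1 hold TFEB in the cytosol, changed by -0.89 and -1.12, and its partner Fnip2 by -1.57 and -1.52. Of 10 inhibitors of cathepsins (11 listed), 1 fell and 1 rose in KO cells, and 2 fell and 1 rose in WT cells. Cst7, a cystatin of immune cells, rose by 1.47 in KO and 1.85 in WT cells, whereas Serpinb6a changed by -1.44 and -1.80. Of the inhibitors Serpinb6a was called higher in KO than in WT cells with LPS (0.56, adjusted p = 0.0341), and of the 20 nutrient sensing genes 0 were called by limma (3 higher and 0 lower at an unadjusted p below 0.05). For counts at an unadjusted p below 0.05, no share of all genes is given here. Without LPS, 0 of the 89 genes of these lists were called between genotypes by limma, and 2 were higher and 8 lower at an unadjusted p below 0.05. In that comparison Ostm1, a partner of Clcn7, was called lower in KO cells with replicate number as a block (-0.43, adjusted p = 0.0244) and with the term for Xist and Kdm5d (-0.57, adjusted p = 0.0369).

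In settings chosen after seeing the data, the 11 genes of these lists called higher in KO cells with LPS were looked at again. With the term for Xist and Kdm5d, 6 of the 11 were called, namely Galc (1.12, adjusted p = 0.0012), Gga2 (0.81, 0.0105), Pla2g15 (0.66, 0.0152), Serpinb6a (0.79, 0.0164), Slc17a5 (0.56, 0.0214) and Tpp1 (0.72, 0.0261). The other 5 were not, with differences of 0.62 for Ctns, 0.48 for Manba, 0.44 for Scarb2, 0.40 for Sort1 and 0.21 for Igf2r (adjusted p = 0.0581, 0.089, 0.155, 0.344 and 0.406). The term added 3 calls, for Smpd1, Lamtor1 and Lamtor4. With replicate number as a block all 11 were called and 7 were added. Over the arrays with Xist above Kdm5d, 0 were called, and Galc differed by 1.08 (adjusted p = 0.0558).

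When each array was left out in turn, Galc, Gga2, Manba, Pla2g15 and Slc17a5 were called higher in KO cells with LPS in all 8 fits. Scarb2 was called in 6 (lost without KO array 1 or 2), Ctns in 4 (KO array 1, 3 or 4, or WT array 2) and Tpp1 in 3 (KO array 1, 3 or 4, or WT array 2 or 3). Igf2r and Serpinb6a were called in 2 fits and Sort1 in 1. The difference in LPS response was called higher for 4 of the 89 genes, where 0.988% of all genes were. Galc and Pla2g15 were called in all 16 fits that left out 1 array, Gga2 in 7 and Slc17a5 in 6. With the term the adjusted p of these genes was 0.0116, 0.0175, 0.0316 and 0.0258. The term left their estimates unchanged and could not do otherwise, as the marks fall on the same array numbers in both treatments. It is no check on the marks there.

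**Figure D5:**
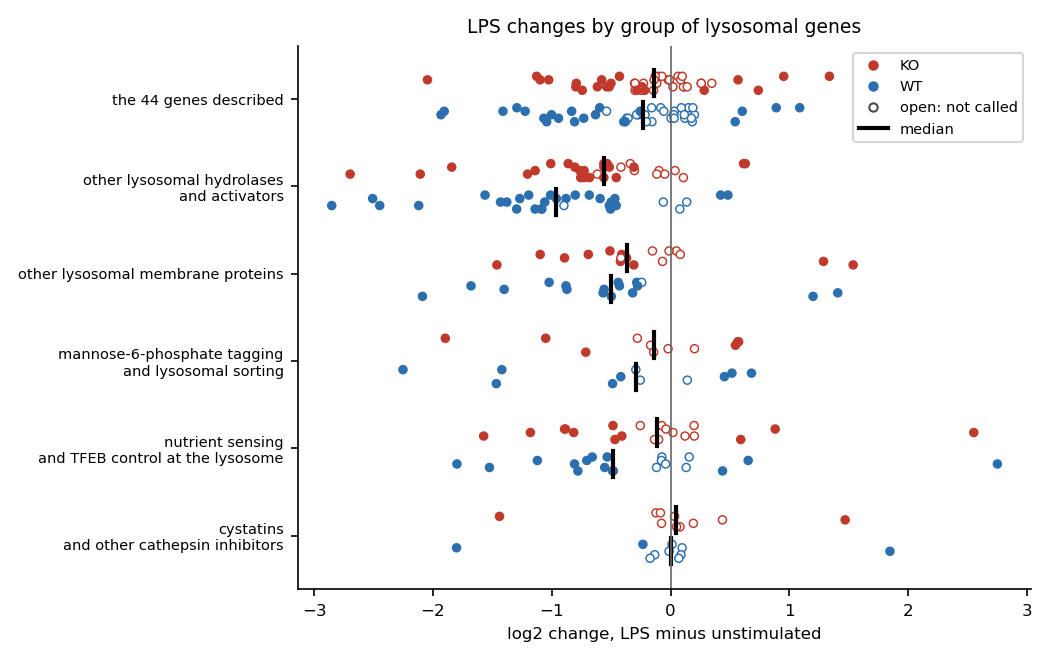
The log2 change with LPS (x axis) of each gene is plotted for the 44 genes and 5 other lists of lysosomal genes (y axis), with KO in red above WT in blue, open circles for genes not called and a black bar at each median. The medians of the other hydrolases lie at -0.56 in KO and -0.96 in WT cells, farther to the left than those of the 44 genes at -0.14 and -0.24.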

How the data were processed

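Messenger RNA of 16 mouse macrophage samples was measured on 1-channel Affymetrix arrays. The authors deposited log2 expression levels per probe set, made with RMA per the submitters' processing notes, which give no version. RMA brings all arrays to a common distribution, which takes out any shift common to all genes and compresses changes of dim ones. Of 34760 probe sets, 21640 had 1 gene in the platform annotation, 1321 had several and 11799 are unnamed here. Symbols were looked up in a RefSeq table (GRCm38.p6), which held 21553 of the 21640 and changed 0. Atp6v0c had no probe set assigned to it alone under that symbol, so it was not analysed here. Precision is limited by the 4 arrays a group, whose medians spanned 6.76 to 6.86.

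All 16 arrays were fitted together by group (limma 3.58.1, lmFit and eBayes, R 4.3.3), with 12 residual degrees of freedom and no filter, so all 44 genes were tested and p-values were adjusted over 19937 genes. The procedure was tested on simulated data. Replicate numbers were read from the sample titles. Deviations from group means correlated between KO and WT arrays of a number by 0.16 to 0.44 without LPS and 0.19 to 0.52 with it, above the 0.1 set for pairing, so blocked values are given where they change a genotype call. Levels by array are given for genes called in a genotype comparison, for Tfeb, Tfe3, Lamp1 and Mcoln1, and for the 8 largest called changes of each LPS response; of the other lists, up to 4 called genes per comparison are named. Alternatives were the block, the arrays of the groups compared alone, centring on array medians, leaving out genes below the 25th percentile, the mean of a gene's probe sets, a term for Xist and Kdm5d, numbers 1 to 3 alone, and leaving out each array. Members, lists and tests were chosen with earlier results of these data known.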

Additional observations from a re-analysis of the deposited data

Results flagged for a closer look

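In 8 of the 176 sets of 4 arrays (44 genes in 4 groups), 1 array stood far from the other 3, where chance gives about 1 in 20. Atp6v1a read 11.10 in KO array 1 with LPS (others 10.80 to 10.85). Atp6v1b2 read 11.91 in KO array 4 with LPS (others 12.18 to 12.21), and Atp6v1f read 11.68 in the same array (others 11.07 to 11.16). Tfeb read 8.73 in WT array 4 with LPS (others 8.40 to 8.43) and 9.41 in unstimulated KO array 1 (others 9.62 to 9.66). Gla read 10.79 in unstimulated KO array 3 (others 11.02 to 11.03). In unstimulated WT arrays, Atp6v0a1 read 11.50 in array 1 (others 11.89 to 11.94) and Atp6v0b read 11.60 in array 4 (others 11.53 to 11.54). Of the 8, 4 were in arrays numbered 4 and 3 in arrays numbered 1.

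The LPS response of Lipa differed between genotypes by 1.14 on the log2 scale (KO minus WT, 95% interval 0.61 to 1.67), from changes of -0.79 in KO cells and -1.93 in WT cells.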

How the results depend on the processing

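Over the planned settings, single-gene values kept their side of the threshold in 3476 of 3608 cases. They were no longer called in 98, became called in 34 and reversed in 0. The block cannot change a difference between groups, as each number occurs once in every group, so it could not reverse a value. Shares of all genes in this text belong to the fit by group alone, and none is given for the other settings. Calls kept in every planned setting numbered 17 of 22 for LPS in KO cells, 21 of 23 for LPS in WT cells, 2 of 7 for KO against WT with LPS and 0 of 1 for the difference in response. Leaving out each array in turn gave, for LPS in KO cells, 5 to 6 genes higher and 13 to 16 lower, and for LPS in WT cells 4 to 4 higher and 17 to 21 lower. It gave 2 to 6 higher and 0 to 0 lower for KO against WT with LPS, 0 to 0 higher and 0 to 1 lower without LPS (1 without unstimulated KO array 2), and 0 to 1 higher and 0 to 0 lower for the difference in response. For KO against WT with LPS, 2 genes were higher with only the arrays of both groups compared, 4 with each array centred on its median and 4 with the Xist and Kdm5d term. With the replicate block 1 gene, Acp5, was lower in KO cells with LPS and 1, again Acp5, without it. Acp5 was also the 1 gene lower without LPS after centring and after leaving out genes below the 25th percentile (adjusted p = 0.0489 and 0.0476). In the difference in response, 2 genes were higher with the block (Lipa and Atp6v1d) and 0 with numbers 1 to 3 alone, which leave fewer arrays (Lipa 1.24, adjusted p = 0.0571). The cause of these changes was not tested. In the LPS responses same-numbered arrays correlated from -0.06 to 0.56 in KO cells and from 0.05 to 0.43 in WT cells. As the lowest values fell short of the 0.1 set for pairing, the numbers were not taken as pairs there. The block gave 7 higher and 19 lower in KO cells and 4 higher and 21 lower in WT cells.

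For the 89 genes of the 5 other lists, whose settings were all chosen after seeing the data, KO against WT with LPS gave 18 higher with the replicate block, 6 with only the arrays of both groups compared and 0 with only arrays of Xist above Kdm5d. Leaving out each array gave 5 to 12 higher and 0 to 0 lower (5 without KO array 1, 6 without KO array 3 or WT array 2, 7 without KO array 4). Without LPS it gave 0 to 1 higher and 0 to 1 lower, and 1 gene was lower with the block, with centring and with the Xist and Kdm5d term. The difference in response gave 7 higher with the block, 1 with numbers 1 to 3 and 0 with only arrays of Xist above Kdm5d, and 2 to 5 higher and 0 to 0 lower on leaving out arrays (2 without KO array 1 or 2 or WT array 2 or 4 with LPS, and without KO array 1 or 3 or WT array 2 or 4 unstimulated).

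In a setting chosen after seeing the data, only arrays with Xist above Kdm5d (1 KO array per treatment, assumed to vary like the other groups), LPS in KO cells gave 3 genes higher and 2 lower, and KO against WT with LPS and the difference in response gave 0 higher. Fewer arrays were fitted, and of 220 single-gene values 26 were no longer called and 0 reversed. RMA compresses changes of dim genes, and with 4 arrays a group a p above the threshold does not show equality.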
